A study of Mus musculus with 4 samples.

Results

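The B cell receptor and the signalling proteins next to it were examined in J558 cells, an IgA-producing plasmacytoma from a BALB/c mouse, of which 4 transfected clones were measured. The genes were chosen by name, as the receptor chains Cd79a and Cd79b, the surface proteins Ms4a1 and Cd22, the kinases Lyn, Blk, Syk and Btk, and the adaptor Blnk. Of these 9 genes, 8 were matched to 13 of the 45037 probe sets analysed. No probe set carried the symbol Lyn in the platform annotation used here, and Lyn was not analysed here. The AID-silenced group was 2 clones that had received an AID-targeting sequence in a pSilencer 1.0 vector, and the control group was 2 clones that had received the empty vector. AID is activation-induced cytidine deaminase, the enzyme that starts class switching and somatic hypermutation in B cells. All 4 clones also received a neomycin resistance vector and had been selected with G418, and the labels number them as pair 1 and pair 2, each with an AID-silenced and a control clone. Each clone was measured on a single Affymetrix Mouse Genechip 430-2.0 array, so differences between individual clones and differences between arrays cannot be told apart, and no spread within a clone is known.

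In a B cell, membrane immunoglobulin passes its signal through the CD79A and CD79B chains, whose cytoplasmic tails carry paired tyrosines called ITAMs. Src family kinases such as LYN and BLK phosphorylate these tyrosines, SYK binds to them and becomes active, and the adaptor BLNK then brings BTK and phospholipase C gamma 2 together. CD22 counteracts the signal by recruiting phosphatases, and MS4A1 (CD20) is a membrane protein of the B cell surface. Plasma cells, the antibody-secreting end stage from which plasmacytomas derive, are known for turning down much of the B cell programme, including many surface proteins of mature B cells.

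The values are MAS5 signals in arbitrary units, with the 2% trimmed mean of each array at 500. As a measure of what a probe set reads with no matching RNA, 27 probe sets for bacterial genes were used. Their highest signal was 27.3 and 39.9 on the AID-silenced arrays of pairs 1 and 2, and 41.9 and 38.8 on the control arrays. Of all probe sets analysed, between 54.98% and 63.24% exceeded it on each array, so passing it is common. Differences are AID-silenced minus control on the log2(signal + 16) scale, on which 1 is a 2-fold difference and differences of dim probe sets are understated. The labelled cell type was checked first. All 10 plasma cell markers tried (Sdc1, Prdm1, Irf4, Xbp1, Jchain, Igha, Mzb1, Tnfrsf17, Tnfrsf13b and Slamf7) lay above the bacterial probe sets on all 4 arrays. Of 7 matched markers of mature B cells, Cd37 and Cd74 did so, whereas Pax5, Cr2, Fcer2a, Cxcr5 and H2-Aa did not on all 4. Among markers of other cells, Cd8a and Cd28 of 7 T cell genes, Csf1r and Cd68 of 7 myeloid genes, and Col1a2 of 5 fibroblast genes lay above the bacterial probe sets on all 4 arrays. Cd3d, Cd4, Itgam, Cd14 and Dcn lay below them on all 4, and the matched erythroid genes Hba-a1 and Alas2 exceeded them on 2 arrays and 1 array. Over the tested probe sets the arrays correlated with each other at Pearson r between 0.948 and 0.969, the lowest being the AID-silenced clone of pair 1 with the control clone of pair 2.

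Promoters are shown for 4 of the genes, a pair with signals at or near the bacterial background (Cd79a and Cd22) and a pair well above it (Btk and Blnk). The sequences are RefSeq windows of assembly GRCm38.p6, from 250 bases before to 50 after an annotated start, written in the direction of the gene. That assembly is C57BL/6J, not the BALB/c genome of J558. RefSeq windows were found for 5 of the genes, 6 windows in all, with a pair for Syk. The genes shown and the motifs were chosen after the signals were known. Capitals mark matches, on either strand, to the palindrome bound by EBF1 (TCCC and GGGA with a pair of bases between), the core GAGGAA bound by PU.1 (TTCCTC on the other strand), and the octamer ATGCAAAT bound by OCT factors (ATTTGCAT on the other strand). The matches do not overlap each other in these windows. An Ets site (CCGGAAGT, ACTTCCGG on the other strand) and a Pax site (GCGTGACC, GGTCACGC on the other strand) were also searched and had no match in any of the 6 windows of the group, against 3.89% and 0.58% of all mouse windows. The windows lie at chr7:24897247-24897546 on the plus strand (Cd79a), chr7:30878979-30879278 on the minus strand (Cd22), chrX:134583091-134583390 on the minus strand (Btk) and chr19:40994172-40994471 on the minus strand (Blnk).
Cd79a: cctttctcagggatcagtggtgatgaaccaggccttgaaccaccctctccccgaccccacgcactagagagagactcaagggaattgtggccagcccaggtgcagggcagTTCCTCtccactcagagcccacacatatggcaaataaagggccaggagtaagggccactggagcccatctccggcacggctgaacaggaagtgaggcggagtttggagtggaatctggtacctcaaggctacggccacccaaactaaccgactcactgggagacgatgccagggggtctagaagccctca
Cd22: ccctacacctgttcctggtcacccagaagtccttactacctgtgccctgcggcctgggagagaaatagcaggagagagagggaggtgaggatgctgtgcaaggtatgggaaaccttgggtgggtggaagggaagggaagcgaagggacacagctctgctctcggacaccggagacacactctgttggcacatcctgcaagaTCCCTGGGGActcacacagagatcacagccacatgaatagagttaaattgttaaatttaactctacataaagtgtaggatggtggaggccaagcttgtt
Btk: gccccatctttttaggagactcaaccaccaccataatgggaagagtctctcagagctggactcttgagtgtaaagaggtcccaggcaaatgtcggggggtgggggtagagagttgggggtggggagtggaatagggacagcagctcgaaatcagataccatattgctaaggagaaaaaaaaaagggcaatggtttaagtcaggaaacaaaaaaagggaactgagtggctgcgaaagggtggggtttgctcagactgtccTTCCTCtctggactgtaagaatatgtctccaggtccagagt
Blnk: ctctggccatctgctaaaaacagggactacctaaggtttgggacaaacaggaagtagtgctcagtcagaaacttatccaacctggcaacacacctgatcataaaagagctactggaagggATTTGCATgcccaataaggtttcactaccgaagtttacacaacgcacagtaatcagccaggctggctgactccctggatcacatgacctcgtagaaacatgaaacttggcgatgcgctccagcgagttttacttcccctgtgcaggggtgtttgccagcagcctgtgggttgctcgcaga
Cd79a held the PU.1 core at position -140 from the start, and Btk held it at position 10. The Syk window starting at chr13:52596632, not shown, held it at position -9. Of all 32851 mouse promoter windows of this length, 28.28% hold that core. Cd22 held the EBF1 palindrome at position -49, as do 0.9% of windows, and Blnk held the octamer at position -130, as do 1.74%. A match is a description of these letters only. Sites spelled otherwise were not searched for. A window without a match, for the Ets and Pax sites too, may therefore still hold a site for the factor. Genes of the factors and of a coactivator were picked with the motifs. Spi1, which encodes PU.1, had signals of 1333 and 1452.6 in the AID-silenced clones and 1508.4 and 1091.8 in the control clones. Ebf1, by its brightest probe set, lay below the bacterial probe sets on every array, with 6.7 and 16.5 in the AID-silenced clones and 25.8 and 19.0 in the control clones. Pou2f2, an octamer-binding factor, had 588.1 and 391.5 in the AID-silenced clones and 1029.2 and 526.9 in the control clones at its brightest probe set. Pou2af1, the coactivator of OCT factors at octamers in B cells, had 23347 and 27604 in the AID-silenced clones and 24137 and 27821 in the control clones.

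The receptor chains differed in whether they were detected. Cd79a, which encodes the Ig-alpha chain, had signals of 17.6 and 25.4 in the AID-silenced clones of pairs 1 and 2 and of 2.6 and 3.2 in the control clones. All 4 values lay below the bacterial probe sets of their arrays. The AID-silenced values were above both control values, but at this level their order says nothing about RNA, and the probe set was too dim to enter the test. Cd79b, which encodes the Ig-beta chain that pairs with Ig-alpha at the cell surface, had 3188 and 2278.5 in the AID-silenced clones and 2907 and 3638 in the control clones. All 4 clones were far above background and the groups overlapped, with the control clone of pair 2 highest and the AID-silenced clone of that pair lowest. The Cd79b difference was 0.13 in pair 1 and -0.67 in pair 2, with a mean of -0.27 ± 0.26 (SE, n = 2 per group) and a 95% interval of -0.88 to 0.34 (limma adjusted p = 0.9996). The Cd79b mean was -0.51 with pair 1's AID-silenced clone left out and -0.03 with that of pair 2 left out, and -0.43 and -0.11 with the control clone of pair 1 or of pair 2 left out. Each chain is represented by a single probe set, so the low Cd79a reading has no further probe set beside it.

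The surface proteins were dim or variable. Ms4a1 had signals of 89.3 and 391 in the AID-silenced clones and 160 and 59.6 in the control clones at probe set 1423226_at. The AID-silenced clone of pair 2 was highest and the control clone of the same pair was lowest, a 6.56-fold span, and the groups overlapped. The second Ms4a1 probe set, 1450912_at, gave 1.2 and 117 in the AID-silenced clones and 19.3 and 2.2 in the control clones, and only the AID-silenced clone of pair 2 exceeded the bacterial probe sets. Both probe sets, which derive from the same sequence record, were highest in that clone. The Ms4a1 difference at 1423226_at was -0.74 in pair 1 and 2.43 in pair 2, with a mean of 0.84 ± 0.71 (SE, n = 2 per group, limma adjusted p = 0.9996). Without the AID-silenced clone of pair 2 it was -0.13, so its sign rests on that clone. Cd22, the inhibitory sialic acid receptor, gave 26.6 and 8.0 in the AID-silenced clones and 9.9 and 58.4 in the control clones at 1419768_at. Its other probe set, 1419769_at, gave 3.9 and 3.8 in the AID-silenced clones and 14.9 and 6.2 in the control clones. Of these 8 values, the 58.4 in the control clone of pair 2 was the only one above the bacterial probe sets of its array, and the other probe set, from the same sequence record, read 6.2 in that clone. Neither was bright enough to be tested.

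**Figure D1:**
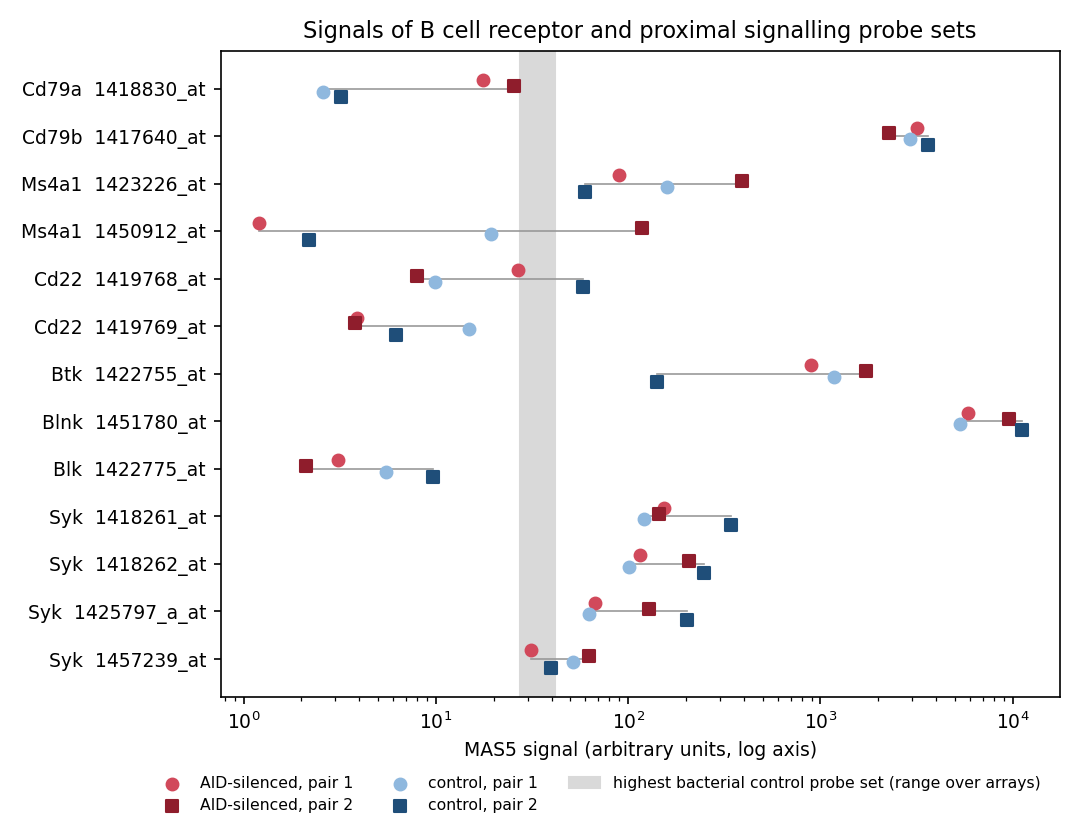
MAS5 signal (log axis, arbitrary units) of each of the 13 probe sets in each of the 4 clones, 1 array per point, with the grey band spanning the highest bacterial control signals of the arrays (27.3 to 41.9). Cd79a, Blk and the dimmer Cd22 probe set lie below the band in all 4 clones, and the Btk signal of 141.5 in the control clone of pair 2 lies apart from 891.6, 1725 and 1181 in the others.

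Of the Src family kinases at the receptor, Blk was not detected. Its signals were 3.1 and 2.1 in the AID-silenced clones and 5.5 and 9.7 in the control clones, all below the bacterial probe sets. Syk, the kinase that binds phosphorylated ITAMs, was represented by 4 probe sets, of which 3 were tested. At 1418261_at the Syk signals were 153 and 145 in the AID-silenced clones and 121 and 341 in the control clones. At 1418262_at they were 116 and 207.5 in the AID-silenced clones and 102 and 248 in the control clones, and at 1425797_a_at they were 67.4 and 129 in the AID-silenced clones and 62.3 and 203 in the control clones. The control clone of pair 2 was highest and that of pair 1 lowest at all 3 of these probe sets, so the control values enclosed the AID-silenced ones. The fourth Syk probe set, 1457239_at, lay between 31.3 and 62.3, was not tested, and did not follow this order, with the AID-silenced clone of pair 2 highest. Syk differences in pair 1 were between 0.09 and 0.30 at the tested probe sets, and in pair 2 between -1.15 and -0.24. The mean was -0.42 ± 0.49 at 1418261_at, -0.04 ± 0.49 at 1418262_at and -0.25 ± 0.56 at 1425797_a_at (SE, n = 2 per group, limma adjusted p = 0.9996 at each). With the mean of the Syk probe sets in place of the brightest, the difference was -0.18. With the control clone of pair 2 left out the sign turned at all 3 tested Syk probe sets, to 0.27, 0.54 and 0.49. When pair 1's AID-silenced clone was left out it turned at 1418262_at and 1425797_a_at, to 0.34 and 0.14.

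Btk, the Tec family kinase that activates phospholipase C gamma 2 and whose loss blocks B cell development in humans, varied more than any other tested gene of the receptor group. Its signals were 892 and 1725 in the AID-silenced clones and 1181 and 141.5 in the control clones. The control clone of pair 2 was low and the other 3 were high, so the groups overlapped. The highest signal was 12.2-fold the lowest, and the range on the log2(signal + 16) scale, 3.47, was larger than that of 99.5% of tested probe sets. The Btk difference was -0.40 in pair 1 and 3.47 in pair 2. With 16 added to each signal, that is 11.1-fold higher in the AID-silenced clone of pair 2. The mean was 1.53 ± 0.95 (SE, n = 2 per group), with a 95% interval of -0.83 to 3.897 and a limma adjusted p of 0.9996. The value rests on the control clones. Leaving out the low one, that of pair 2, gave a Btk difference of 0.07, while leaving out the high one, that of pair 1, gave 2.997 with limma adjusted p = 0.0151, the lone control clone being assumed to vary as the other group does. Values at least 4-fold below every other clone were counted on the log2(signal + 16) scale, a fold chosen after the Btk values were seen. They occurred in the control clone of pair 2 for 70 of 22519 tested probe sets (0.311%). The counts were 24 (0.107%) for the control clone of pair 1 and 4 (0.0178%) for each AID-silenced clone.

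Blnk, the adaptor that links SYK to BTK and phospholipase C gamma 2, was far above background in every clone. Its signals were 5834 and 9554 in the AID-silenced clones and 5324 and 11125 in the control clones. Both clones of pair 2 were higher than both clones of pair 1, and the AID-silenced clones lay inside the range of the control clones. The Blnk difference was 0.13 in pair 1 and -0.22 in pair 2, with a mean of -0.04 ± 0.40 (SE, n = 2 per group), a 95% interval of -1.003 to 0.92 and a limma adjusted p of 0.9996. Without the control clone of pair 2 the Blnk difference was 0.49. Leaving out pair 1's AID-silenced clone gave 0.31.

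Across the group, 0 of the 7 tested probe sets, which stand for 5 genes, were called between AID-silenced and control clones in limma at an adjusted p of 0.05, and 0 had an unadjusted p under 0.05. Over all 22519 tested probe sets the same test called 2, or 0.00888%, so the background was near 0 as well, and 3.49% had an unadjusted p under 0.05. With the pair number as a block it called 8, or 0.0355%, and again 0 of the 7, with adjusted p between 0.825 and 0.989. The groups overlapped at all 7, against 29.5% of tested probe sets with groups that do not overlap. Of the 6 untested probe sets, 3 had groups that did not overlap (Cd79a, Blk and the dimmer Cd22 probe set), beside 31.1% of all probe sets, and all 3 lay below the bacterial probe sets on all 4 arrays. The difference had opposite signs in pairs 1 and 2 at all 7 tested probe sets, compared with 46.1% of all tested probe sets. A difference of at least 2-fold was seen at 0 of the 7 in pair 1 and at 3 in pair 2 (Ms4a1, Btk and Syk 1418261_at), beside 4.8% and 7.27% of all tested probe sets. The 3 tested Syk probe sets share a gene, and some of the differences are close to 0. The median difference of the 7 was 0.13 in pair 1 and -0.24 in pair 2, beside 0.00 and 0.02 over all tested probe sets.

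**Figure D2:**
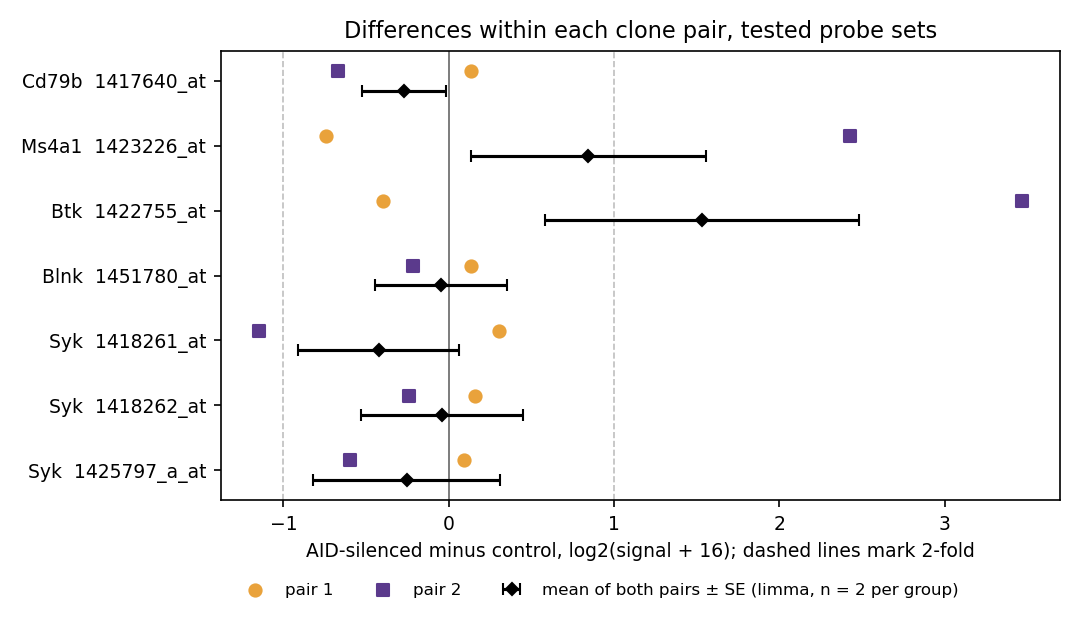
AID-silenced minus control difference on the log2(signal + 16) scale for the 7 tested probe sets, with pair 1 as circles, pair 2 as squares, and the mean with its standard error from limma (n = 2 per group) as black diamonds. Circle and square lie on opposite sides of 0 in every line, with the widest gap for Btk (-0.40 and 3.47).

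The clones were also compared by pair, pair 2 against pair 1, with the group kept in the model. Of the 7 tested probe sets 0 were called by limma at an adjusted p of 0.05, with 4 of all 22519 called (0.0178%). Unadjusted p was under 0.05 for 3 of the 7, beside 15.8% of all tested probe sets. Blnk was higher in pair 2 by 0.89 ± 0.15 (SE, n = 2 per pair, limma unadjusted p = 0.000733, adjusted p = 0.123). Syk was higher in pair 2 by 0.97 ± 0.30 at 1418262_at and by 1.14 ± 0.35 at 1425797_a_at (SE, n = 2 per pair, limma adjusted p = 0.215 and 0.213). At 1418261_at the Syk difference between pairs was 0.66 ± 0.40. Cd79b differed by -0.08 ± 0.23 between pairs, Ms4a1 by 0.37 ± 0.86 and Btk by -0.99 ± 1.05 (limma adjusted p between 0.701 and 0.897).

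The wider receptor pathway was then described from lists of 70 further genes, of which 64 were matched and 46 were bright enough to be tested. In the limma comparison of AID-silenced and control clones 0 of the 46 were called, with unadjusted p under 0.05 for 4 (Rasgrp1, Dok3, Hcls1 and Rasgrp3), or 8.7%, beside 3.89% of all tested genes. By sign, 17 were higher in both AID-silenced clones, 11 were lower in both and 18 were opposite (37.0%, 23.9% and 39.1%). Over all 10475 tested genes these shares were 26.7%, 27.5% and 45.7%. The medians over the 46 genes were 0.10 in pair 1 and 0.09 in pair 2, beside 0.00 and -0.01 over all tested genes.

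Among the downstream enzymes and channels, with 16 genes tested, 7 were higher in both pairs, 3 lower and 6 opposite. Rasgrp1, an exchange factor that activates RAS downstream of antigen receptors, had signals of 192.5 and 264.5 in the AID-silenced clones and 43.8 and 5.8 in the control clones at its brightest probe set. The AID-silenced values lay above both control values there and at each of its 3 other probe sets, of which 1 was bright enough to be tested. The Rasgrp1 difference was 1.80 in pair 1 and 3.69 in pair 2, a mean of 2.74 ± 0.53 (SE, n = 2 per group, limma unadjusted p = 0.00162, adjusted p = 0.778). At the other probe sets its mean differences were 1.53, 1.73 and 1.74. Apart from the 43.8, the control signals of Rasgrp1 lay below the bacterial probe sets at all 4 probe sets. Rasgrp3, the related exchange factor of B cells, had 292 and 597 in the AID-silenced clones and 204 and 217 in the control clones, and its second probe set differed by -0.16 in pair 1 and 2.93 in pair 2. Plcg2, the phospholipase that BTK activates, had 5796 and 5370 in the AID-silenced clones and 7491.5 and 6265.5 in the control clones (difference -0.30 ± 0.20, SE, n = 2 per group, limma adjusted p = 0.9996). Pik3cd, the phosphoinositide 3-kinase subunit of leukocytes, was at -0.60 ± 0.29 at its brightest probe set (SE, n = 2 per group, limma adjusted p = 0.9996), whereas its other 2 tested probe sets were at 0.26 and 0.44. Akt1, a kinase downstream of phosphoinositide 3-kinase, was at 0.20 ± 0.21, and its other tested probe sets were at 0.11 and -0.24.

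Of the adaptors and exchange factors, with 12 genes tested, 5 were higher in both pairs, 4 lower and 3 opposite. Hcls1, a substrate of SYK and LYN that binds actin, had 1994 and 1703 in the AID-silenced clones and 1263 and 612 in the control clones. Both AID-silenced clones were above both control clones, and the Hcls1 difference was 1.05 ± 0.36 (SE, n = 2 per group, limma adjusted p = 0.9996). Vav2 and Vav1, exchange factors phosphorylated after receptor engagement, were at 0.54 ± 0.39 and 0.41 ± 0.39 (SE, n = 2 per group), but the other Vav2 probe sets, too dim to be tested, were at -1.25 and 0.62. The second tested Vav1 probe set was at 0.08, with -0.41 in pair 1 and 0.57 in pair 2. Grb2 and Cbl, an adaptor and a ubiquitin ligase of many receptors, were at -0.11 and 0.15. The other tested probe sets were at -0.01 for Grb2 and at -0.13 and 0.30 for Cbl. 

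Of the inhibitory receptors and phosphatases, with 11 genes tested, 3 were higher in both pairs, 3 lower and 5 opposite. Lax1, a membrane adaptor that restrains lymphocyte signalling, had 5846.5 and 4079 in the AID-silenced clones and 3436 and 971.5 in the control clones (difference 1.41 ± 0.58, SE, n = 2 per group, limma adjusted p = 0.9996). Dok3, an adaptor that inhibits signalling downstream of the receptor, had 1125 and 756 in the AID-silenced clones and 512 and 409 in the control clones, a difference of 0.99 ± 0.30. For both genes the AID-silenced clones lay above the control clones. Fcgr2b, the inhibitory Fc receptor that dampens the B cell receptor, had 310 and 201 in the AID-silenced clones and 584 and 252 in the control clones at its brightest probe set, at -0.59 ± 0.46 (SE, n = 2 per group, limma adjusted p = 0.9996). Its other probe sets included AID-silenced readings below the bacterial probe sets, so the size of their differences is set in part by background and the pseudocount. At 1435477_s_at the Fcgr2b signals were 8.2 and 32.2 in the AID-silenced clones and 515 and 136 in the control clones, a difference of -3.06 ± 0.66 (SE, n = 2 per group, limma unadjusted p = 0.00275, adjusted p = 0.9996). At 1455332_x_at they were 50.6 and 13.5 in the AID-silenced clones and 329.5 and 124.5 in the control clones, at -2.31 ± 0.58. Both AID-silenced values at 1435477_s_at and the 13.5 at 1455332_x_at lay below the bacterial probe sets. At 1451941_a_at they were 35.6 and 145 in the AID-silenced clones and 561 and 139 in the control clones, so the pairs disagreed. 

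**Figure D3:**
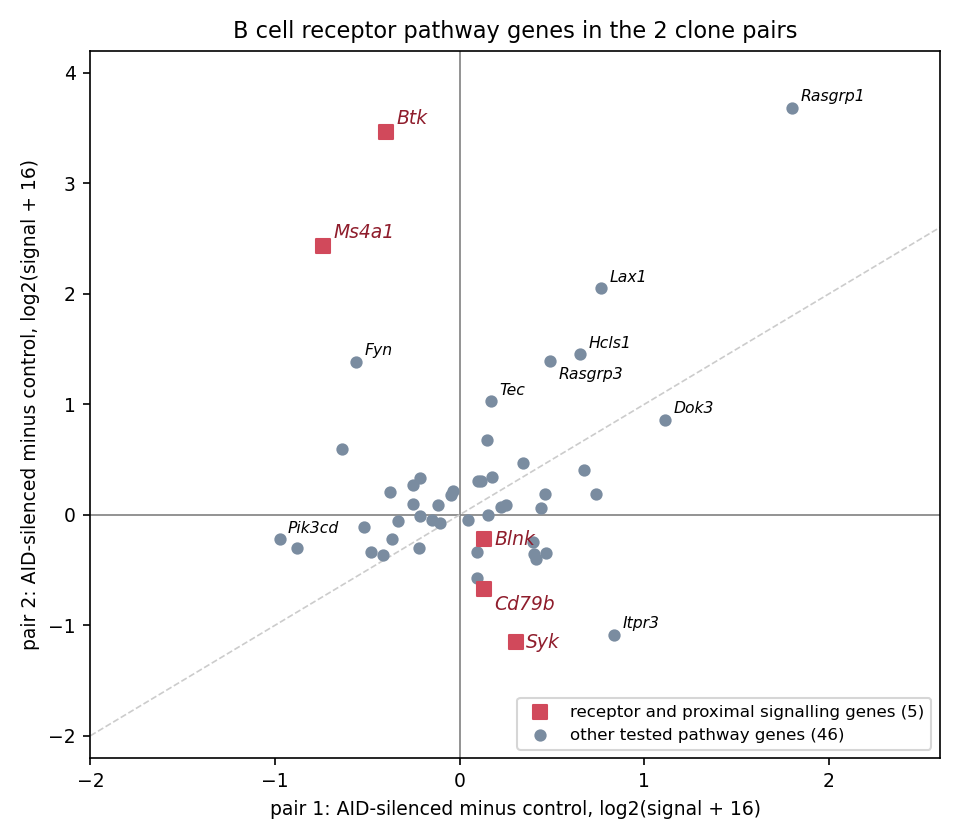
Difference in pair 2 against difference in pair 1 (log2(signal + 16), AID-silenced minus control) for the 5 tested receptor and proximal signalling genes as red squares and 46 other pathway genes as grey points, each by its brightest probe set, with the dashed line marking equal values. The red squares all fall in the quadrants of opposite sign, and Rasgrp1 (1.80 and 3.69) lies farthest out among genes of equal sign.

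The relatives of the receptor kinases were mixed. Fyn, another Src family kinase, had 4291.5 and 2693 in the AID-silenced clones and 6336 and 1021 in the control clones. The control clone of pair 2 was again lowest, also at the second Fyn probe set, and the Fyn difference was -0.56 in pair 1 and 1.39 in pair 2. Csk, which switches Src family kinases off, was at -0.24 ± 0.25, and Yes1 at 0.21 ± 0.29 (SE, n = 2 per group, limma adjusted p = 0.9996). The other tested Yes1 probe sets were at -0.30 and 0.52. Tec, from the family of Btk, had 3016 and 3307.5 in the AID-silenced clones and 2680 and 1611 in the control clones, a difference of 0.60 ± 0.29. Zap70, from the family of Syk, had 289 and 350 in the AID-silenced clones and 392 and 455 in the control clones at its brightest probe set, and its other 2 probe sets were too dim to be tested. Of the coreceptor proteins, Cd81 was at 0.07 ± 0.22, with signals between 4712 and 6078, and was the only coreceptor gene bright enough to be tested. For the regulators of B and plasma cell genes, 0 of 11 tested were called, with 6 higher in both pairs, 2 lower and 3 opposite. Among these Ikzf3 was at 0.69 ± 0.55, Pou2f2, an octamer-binding factor, at -0.60 ± 0.39, and Prdm1, which represses the B cell programme, at 0.50 ± 0.27 (SE, n = 2 per group, limma adjusted p = 0.9996).

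The genes with profiles most like those of Btk and Ms4a1, the 2 tested genes of the group with the largest range, were found by the root mean square difference of gene-centred log2 values over the 4 arrays, among 10474 other tested genes. For Btk they were Tnfrsf18, Mlkl and Rnf128, at 0.21, 0.24 and 0.30, against a median of 1.34 over all genes. Tnfrsf18 had signals of 132 and 356 in the AID-silenced clones and 198 and 21.1 in the control clones. In the control clone of pair 2 all 3 of these genes read below the bacterial probe sets (21.1, 7.2 and 17.0), so how far they drop there, and with it their likeness to Btk, depends on background and the pseudocount. For Ms4a1 they were Exosc6, Nab2 and Ccnjl, at 0.27, 0.36 and 0.37, against a median of 0.96. Exosc6 and Ccnjl likewise read below the bacterial probe sets in the control clone of pair 2, at 28.9 and 13.9. With 4 arrays many profiles resemble each other, and no test was made.

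**Figure D4:**
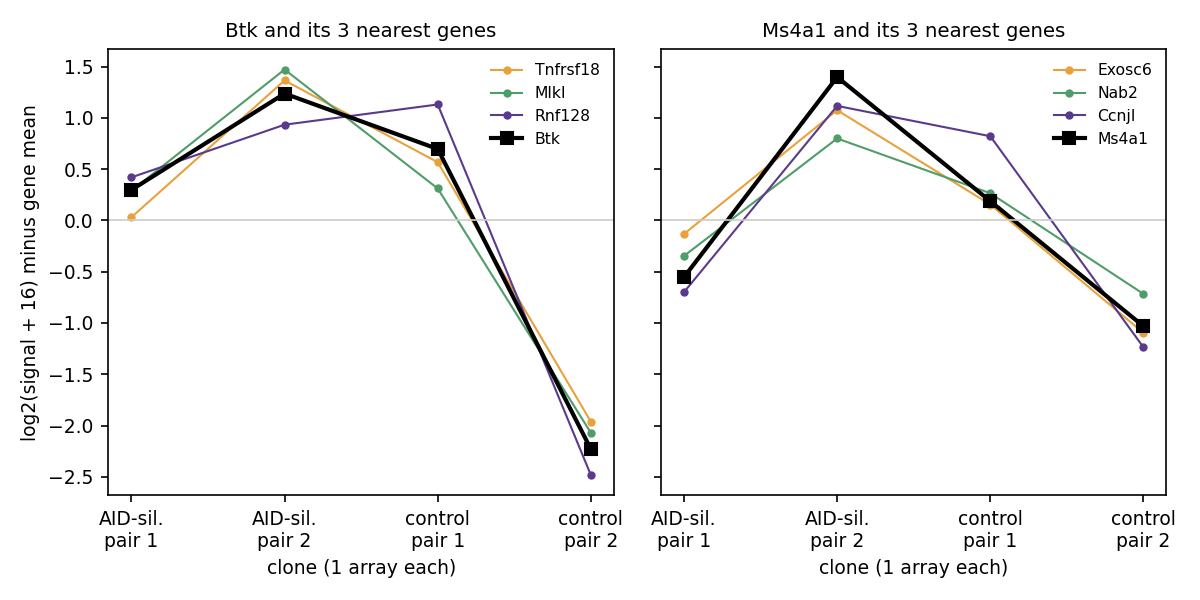
log2(signal + 16) minus the gene mean in the 4 clones (1 array each) for Btk and Ms4a1 in black and the 3 genes nearest to each in colour, joined by lines as a guide to the eye only. In the Btk panel all 4 genes are lowest in the control clone of pair 2, and in the Ms4a1 panel all 4 are highest in the AID-silenced clone of pair 2 and lowest in the control clone of pair 2.

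The low Btk value in the control clone of pair 2 was accompanied by low values of some other lymphocyte genes in that clone, but not of all. Cd79b (3638), Blnk (11125), Csk (4815.5) and Syk at its tested probe sets were highest in that clone. Only low values were counted. Of the 72 tested genes of the pathway, regulator and marker lists, 7 were at least 2-fold below every other clone there (Fyn, Hcls1, Lax1, Rasgrp1, Cd74, Cd2 and Slamf7), and 0 were so in any of the other 3 clones. Over all tested genes the share was 2.12% for the control clone of pair 2, 0.792% for that of pair 1, and 0.315% and 0.773% for the AID-silenced clones of pairs 1 and 2. The Rasgrp1 and Cd2 readings in the control clone of pair 2, 5.8 and 24.4, lay below the bacterial probe sets. At the other Rasgrp1 probe sets the control clone of pair 1 was lowest instead. Cd74, the invariant chain of MHC class II, had 1573 and 2375 in the AID-silenced clones and 4931 and 138 in the control clones. The summed signal of the 10 plasma cell markers was 153964 and 179288 in the AID-silenced clones and 140368 and 176168 in the control clones, a sum carried mostly by Igha, Xbp1 and Jchain. Among the dimmer plasma cell markers, Slamf7 had 2969 and 2102 in the AID-silenced clones and 1932 and 814 in the control clones. Tnfrsf17 had 1373 and 2620 in the AID-silenced clones and 1869 and 999 in the control clones, so both were lowest in the control clone of pair 2. Other markers of the list differed. Prdm1 was lowest in the control clone of pair 1 (1435) and Tnfrsf13b in the AID-silenced clone of pair 2 (4093). Sdc1 and Igha were highest in the control clone of pair 2 (18897 and 51693). For the 7 matched B cell markers the sums were 3412 and 3411 in the AID-silenced clones and 6154 and 1562 in the control clones, and the low sum comes from Cd74. Cd37, the other detected marker of that list, had 1625 and 904 in the AID-silenced clones and 1064 and 1254 in the control clones and was not lowest there. The 7 T cell markers summed to 2191.5 and 654 in the AID-silenced clones and 1277 and 988 in the control clones, and the 7 myeloid markers to between 1078 and 1287 in all 4. The fold was chosen after the values were seen. Whether these other genes bear on the Btk value was not tested.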

How the data were processed

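RNA of 4 J558 clones was hybridised to Affymetrix Mouse Genechip 430-2.0 arrays, 1 array per clone. The deposited intensity values are linear MAS5 signals, per the submitters' processing notes, and the 2% trimmed mean of each array was 500. Of 45101 probe sets, 64 array controls were left out. Genes were named from the platform annotation, in which 34945 probe sets had 1 symbol, 932 several and 9160 were not listed. A pseudocount of 16 was added, log2 taken, and the brighter 0.5 of probe sets by mean log2 (22519, a mean signal above about 49.4) tested with limma 3.58.1 in R 4.3.3 (lmFit and eBayes, trend and robust, Benjamini-Hochberg over all tested probe sets, adjusted p of 0.05). The fit was tested on simulated data with 50 probe sets changed at each size for the AID-silenced against control contrast. Of probe sets changed by a log2 difference of 1 it recovered 1, and of those changed by 2, 3 and 4 it recovered 12, 33 and 42. Among the unchanged rest of the 22519 probe sets, 6 were called falsely. The simulated noise was independent between clones, with no pair effect, so recovery in the measured data may differ. With 2 clones a side an exact permutation test cannot pass 0.05.

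The labels name pairs without saying what a pair shares. Deviations of same-numbered clones correlated across tested probe sets at Pearson r = 0.306 and Spearman rho = 0.336, over probe sets that are not independent, so the fit with the pair as a block is given beside the unblocked one. The p-values weigh a difference against the spread between clones, which includes that between arrays, with the variance moderated over the tested probe sets. Each gene is given by the probe set with its highest mean. Named genes are all members and, of each pathway list, up to 3 with the largest mean difference of equal sign in both pairs, up to 2 with the brightest signal, the cell type markers, and the 3 genes nearest in profile to each of the 2 members with the largest range. The 4 genes with an unadjusted p under 0.05 and those lowest in a single clone were picked out with their values already known. The members and lists were chosen with earlier results of these data known. The level of the silenced gene is not reported here. The number of arrays limits the precision. Alternatives were quantile and median scaling, pseudocounts of 1 and 64, other filters, the block, the mean of a gene's probe sets, and leaving out each clone.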

Additional observations from a re-analysis of the deposited data

Results flagged for a closer look

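At each of the 7 tested probe sets the AID-silenced clone moved one way in pair 1 and the opposite way in pair 2. The pair 2 difference minus the pair 1 difference, on the log2(signal + 16) scale, was 3.87 for Btk, 3.17 for Ms4a1, -0.80 for Cd79b and -0.35 for Blnk. For Syk it was -1.45 at 1418261_at, -0.40 at 1418262_at and -0.69 at 1425797_a_at. With 1 array per clone these differences between pairs were not tested, and 46.1% of all tested probe sets also had opposite signs.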

How the results depend on the processing

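Between AID-silenced and control clones limma called 2 probe sets, 8 with the pair as a replicate block, and between 0 and 146 when a clone was left out (0 without the AID-silenced clone of pair 1, 146 without the control clone of pair 1, 52 without the control clone of pair 2). Of the 7 tested probe sets of the receptor group it called 0, and 0 to 1 when a clone was left out, the 1 being Btk without the control clone of pair 1. The block changed no call among the 7. With a clone left out, the ranges of the log2 difference were -0.13 to 1.82 for Ms4a1, 0.07 to 2.997 for Btk, -0.57 to 0.49 for Blnk, -0.51 to -0.03 for Cd79b, and -1.11 to 0.27, -0.63 to 0.54 and -0.996 to 0.49 for Syk at 1418261_at, 1418262_at and 1425797_a_at. The lone clone of a group was assumed to vary like the other group. Between pairs limma called 4 probe sets, 7 after quantile normalisation and 0 with the group left out of the model. Without the filter, where more probe sets are tested, it called 11. The cause of the other changes was not tested. With the mean of a gene's probe sets the difference was -0.18 for Syk, against -0.42, and 0.88 for Ms4a1, against 0.84. The other settings kept direction and call at all 45 values for the groups and all 45 for the pairs. Of 104 within-pair values 14 moved, all at dim probe sets with a pseudocount of 1 or 64. Leaving out a clone was not run for the pair comparison, since no residual degrees of freedom remain. Signals near the bacterial probe sets (Cd79a, Cd22, Blk) limit what can be said of those genes.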
